A study of Mus musculus with 8 samples.

Results

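Expression of 9 genes that mark the formative or primed epiblast was followed while mouse embryonic stem cells (ESCs) were moved from serum medium to 2i. The genes are Otx2, Pou3f1, Fgf5, Zic2, Foxd3, Sox3, Lin28b, Tcf15, and Sox4. They were chosen by symbol, from GENCODE M21, among the 37263 Ensembl genes of the count tables, and a row was found for 9 of the 9. E14 cells (strain 129/Ola), grown without feeders and with LIF, were harvested 4, 16, 24, and 32 hr after serum was replaced by serum-free medium with LIF, the MEK inhibitor PD0325901, and the GSK3 inhibitor CHIR99021, together called 2i. At each time 1 library came from 2i alone and 1 from 2i with 17 µM vitamin C (vitC), so that all 8 libraries share the line, LIF, and both inhibitors. No serum library was analysed here, and 4 hr is the earliest point of each comparison.

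The naive state of the preimplantation epiblast passes through a formative state to a primed state around implantation, before gastrulation. OTX2 and POU3F1 (OCT6) are transcription factors of that exit, FGF5 is a secreted factor of the postimplantation epiblast, and FGF signaling through MEK and ERK drives the transition. Serum cultures hold a mixture of naive and more advanced cells, whereas inhibition of MEK and GSK3 keeps ESCs in the naive state. In bulk RNA, fewer cells that express a gene and less RNA per cell cannot be told apart.

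The libraries held between 4753528 and 18434932 counts, the fewest in the vitC library at 24 hr. Levels are CPM, counts scaled to a common library total adjusted with edgeR's TMM factors, with an exact Poisson 95% interval that covers counting error only. A floor of 3 counts was set for a count of 0, which is 0.158 to 0.643 CPM in these libraries. The upper end of the 95% interval of a 0 lies higher, at 0.1939 to 0.7912 CPM. With 1 library per combination there were no replicate cultures. Time was therefore tested in an additive model of time and treatment on all 8 libraries (edgeR quasi-likelihood test, Benjamini-Hochberg adjustment over 14931 genes, threshold 0.05), in which the error comes from how far the curves with and without vitC depart from parallel. The 3 comparisons with 4 hr share the 4 hr libraries. The 4 and 24 hr libraries ran on lane 8 and the 16 and 32 hr libraries on lane 7, so that lane and time cannot be told apart for 16 or 32 hr against 4 hr. The share of counts on Lars2 and a pair of features that vary with it was 0.0113% and 0.0277% at 4 hr and between 0.206% and 7.11% later. The ESC markers Pou5f1, Sox2, Nanog, Zfp42, Sall4, Dppa5a, and Tdgf1 summed to between 1540 and 1800 CPM in the 8 libraries. Single markers changed within that sum, and 2 of the 7 rose and 2 fell at 32 hr against 4 hr. On the log2 scale, Sox2 rose by 1.15 and Dppa5a by 0.74 (edgeR adjusted p = 0.00024 and 0.0127). Zfp42 fell by 0.75 and Pou5f1 by 0.50 (edgeR adjusted p = 0.00778 and 0.0163).

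The members did not move together. Sox4 and Sox3, both SOX-family transcription factors, rose after 4 hr, although the rise of Sox3 at 32 hr did not pass under most alternatives. Lin28b and Zic2 stayed expressed through 32 hr, without a change that passed the test. Foxd3, Tcf15, and Otx2 were low and did not pass the test. Fgf5 was close to the detection limit and went to 0 or 1 count at 32 hr, and Pou3f1 had no count in any library. Of the 9 members, 7 passed the filter on low values (at least 1 CPM in at least 2 libraries), and Fgf5 and Pou3f1 did not. Between 4 and 24 hr, 2 of the 7 rose and 0 fell, and 20.5% of all genes tested passed (11.5% higher and 8.98% lower, or 9.51% and 11.5% after an offset for GC content and gene length). The same 2 members rose at 16 hr, where 16.4% of all genes passed (9.16% higher and 7.24% lower, or 7.72% and 9.59% with that offset), and at 32 hr, where 25.3% passed (13.5% higher and 11.8% lower, or 11.1% and 13.2% with the offset). Without the vitC library at 24 hr, 1 member rose at 24 hr, and 3.42% of all genes were higher and 1.66% lower. The median log2 fold change at 24 hr was -0.33 over the 7 members tested and 0.01 over all genes.

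**Figure D1:**
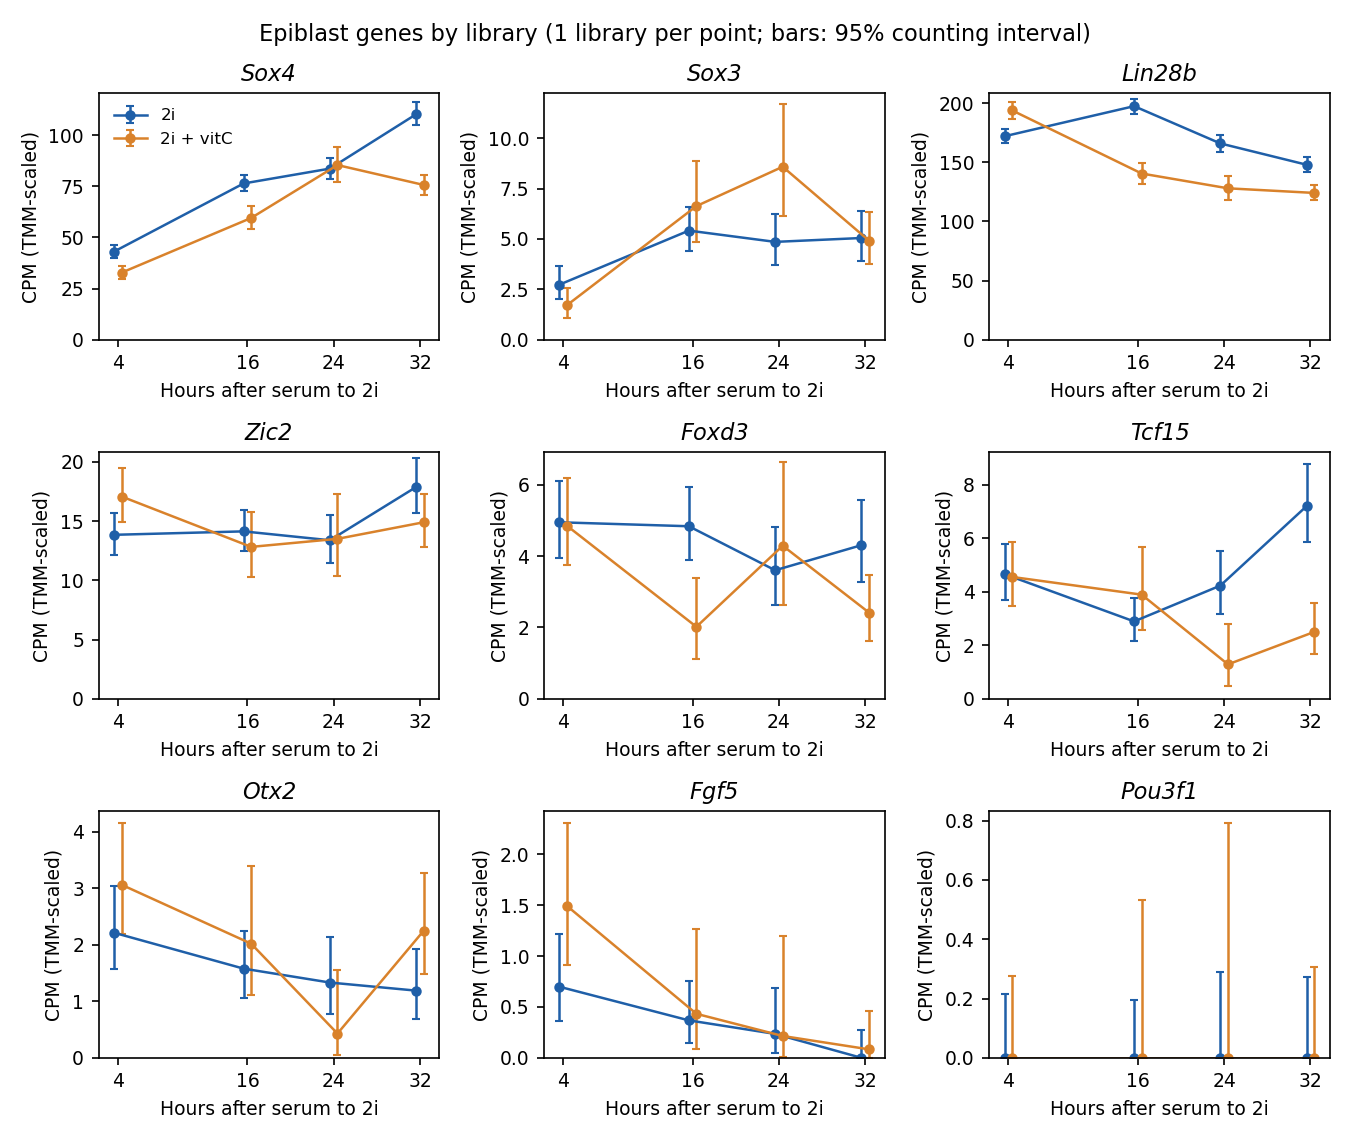
Each panel plots 1 gene, with hours after the switch from serum to 2i on the x axis and TMM-scaled CPM on the y axis (linear, from 0, scaled per gene). Each point is 1 library, in 2i (blue) or 2i with vitC (orange), the bars are 95% counting intervals, and the points of a time are set slightly apart. Sox4 and Sox3 lie higher at every later time than at 4 hr, Fgf5 lies lower, and Pou3f1 is at 0 throughout.

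Per kilobase of merged exons (RPKM), the mean levels over the 8 libraries ran from Lin28b (17.5) and Sox4 (14.8) through Zic2 (5.1), Tcf15 (3.98), Sox3 (2.41), and Foxd3 (1.68) to Otx2 (0.416), Fgf5 (0.176), and Pou3f1 (0). The ranges over libraries of neighbours in this order overlapped, except that Sox4 (6.85 to 23) lay above Zic2 (4.45 to 6.21) and Foxd3 (0.868 to 2.13) above Otx2 (0.102 to 0.725). Lin28b and Sox4 changed order between libraries, from 19 and 8.99 in 2i at 4 hr to 16.3 and 23 in 2i at 32 hr. The length used for Sox4 includes 2616 bp shared with Gm26735, and whether reads there were counted is not known. Among the genes tested, the mean CPM of Lin28b was at the 91.5th percentile, that of Sox4 at the 77.3rd, and that of Otx2 at the 12.7th.

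The sequences below belong to Lin28b, with the highest mean level per kilobase, and to Sox4 and Fgf5, which moved in opposite directions. LIN28B, like its paralog LIN28A, is an RNA-binding protein that blocks the maturation of let-7 miRNAs, and let-7 in turn targets Lin28 transcripts, a double-negative loop that separates pluripotent from differentiated cells. RefSeq's mature let-7a is shown with its seed, bases 2 to 8, in capitals; 9 mouse let-7 family members, miR-98 included, share that seed. It is followed by the places after the stop codon of Lin28b-201 and Lin28a-201 (GENCODE M21 transcripts) that match the seed, in capitals.
mmu-let-7a-5p: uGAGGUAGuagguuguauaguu
Lin28b site 1: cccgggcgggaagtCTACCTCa
Lin28b site 2: atacttgttagtaaCTACCTCt
Lin28b site 3: tttacagcacatggCTACCTCc
Lin28b site 4: aatgatggcaccgaCTACCTCt
Lin28a site 1: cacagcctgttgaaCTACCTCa
Lin28a site 2: agatcgccacaaacCTACCTCa

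The Lin28b sites start 36, 2410, 2582, and 3998 bases after the stop codon of a 3′ UTR of 4445 bases, and those of Lin28a start at 909 and 1547 of 2775 bases. The longest annotated 3′ UTR of each of the other 8 members held 0 matches to CTACCTC, read on the transcript strand. Of 21020 genes with an annotated 3′ UTR, 9.02% held at least 1 match and 0.0571% at least 4. Of 659 genes with a 3′ UTR from 4000 to under 5000 bases, 23.1% held at least 1 and 0.455% at least 4. Mature miRNAs were not measured in these libraries.

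Promoters are shown for Sox4, which rose in all 3 comparisons with 4 hr under every alternative run, and for Fgf5, whose counts ran out. The promoter table used here had an entry for 5 of the 9 members, and Sox3 was not among them. Both are the 250 bases before the start in RefSeq (GRCm38.p6), 5′ to 3′ on the gene's strand, at chr13:28953700-28953949 (minus strand) for Sox4 and chr5:98253934-98254183 (plus strand) for Fgf5. Capitals mark CCAAT in Sox4 and CCGGAA, a core of ETS-factor sites, in Fgf5, on either strand.
Sox4: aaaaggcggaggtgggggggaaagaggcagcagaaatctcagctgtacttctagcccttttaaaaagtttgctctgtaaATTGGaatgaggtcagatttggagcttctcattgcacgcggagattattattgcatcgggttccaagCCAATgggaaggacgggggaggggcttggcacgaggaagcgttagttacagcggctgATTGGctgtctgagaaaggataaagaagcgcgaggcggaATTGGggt
Fgf5: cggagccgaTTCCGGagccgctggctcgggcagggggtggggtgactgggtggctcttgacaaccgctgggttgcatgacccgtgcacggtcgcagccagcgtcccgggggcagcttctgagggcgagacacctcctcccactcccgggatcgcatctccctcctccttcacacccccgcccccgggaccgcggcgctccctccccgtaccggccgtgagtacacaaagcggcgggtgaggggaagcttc

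The Sox4 window held 4 CCAAT matches, 171, 104, 47, and 8 bases before the start. At least 1 match was found in 33.8% of 32851 RefSeq promoters of this length and at least 4 in 0.84%. The Fgf5 window held 0 CCAAT matches and 1 CCGGAA match, which 12% of promoters held, and its GC content was 70.8% with 24 CpGs, against 50.8% and 11 CpGs for Sox4. A search of both strands found 0 matches in either window to the TATA box TATAAA, the TCF/LEF motif ATCAAAG, the octamer motif ATGCAAAT, and the SOX motif ACAATG. A match describes letters and not a site in use.

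Sox4 (ENSMUSG00000076431), a SOXC-class factor active in many progenitor cells, was measured in 2i at 43.12 CPM at 4 hr (40.07 to 46.33), followed by 76.37, 83.63, and 110.2 CPM (104.7 to 116) at 16, 24, and 32 hr. With vitC it started from 32.83 CPM (29.83 to 36.04) and reached 59.52, 85.36, and 75.64 CPM (70.8 to 80.73). The 6 later libraries all lay above both 4 hr libraries. The log2 fold change was 0.84 at 16 hr (SE 0.16, adjusted p = 0.00524), 1.17 at 24 hr (SE 0.16, adjusted p = 0.000657), and 1.28 at 32 hr (SE 0.16, adjusted p = 0.000198, edgeR). Within lane 8, 24 hr against 4 hr gave 1.17 (adjusted p = 0.00125, edgeR). From 16 to 32 hr, in the fit of all 8 libraries, Sox4 did not pass (0.44, SE 0.16, edgeR adjusted p = 0.226), where 0.583% of all genes did (0.335% higher and 0.248% lower). In GENCODE M21 the single exon of Sox4 (4795 bp) overlaps 2616 bp of Gm26735 on the opposite strand. The library kit does not mark strand, so that reads from the stretch these genes share cannot be told apart. Whether such reads were counted for Sox4, or for neither gene, is not known.

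Sox3 (ENSMUSG00000045179), a SOXB1-class factor of the epiblast and early neural plate, was counted 47, 103, 62, and 68 times in 2i at 4, 16, 24, and 32 hr. These counts are 2.735, 5.414, 4.855, and 5.047 CPM. With vitC it was counted 23, 46, 40, and 59 times, or 1.716, 6.629, 8.579, and 4.915 CPM. The later libraries again lay above both 4 hr libraries, with 178% to 198% of the 4 hr level in 2i and 286% to 500% with vitC. The log2 fold changes were 1.39 at 16 hr (SE 0.39, adjusted p = 0.0307), 1.50 at 24 hr (SE 0.40, adjusted p = 0.0201), and 1.13 at 32 hr (SE 0.39, adjusted p = 0.0498, edgeR). Its log2 fold change from 16 to 32 hr was -0.26 (SE 0.37, adjusted p = 0.794, edgeR). The calls of Sox3 were less stable than those of Sox4. Without the vitC library at 24 hr, the 24 hr value was 1.07 (adjusted p = 0.233, edgeR), and after an offset for GC content and gene length the 32 hr value was 0.67 (adjusted p = 0.226, edgeR). The 32 hr call was lost under 8 of 9 alternatives (adjusted p up to 0.226) and the 16 hr call under 3 of 9 (adjusted p up to 0.0561). Summed levels of markers of other cell types also differed between 4 hr and later, in both directions. The 6 fibroblast markers summed to 94.9 and 111 CPM at 4 hr and to between 258 and 669 later, mostly through the collagens Col1a1 and Col1a2. The 7 endoderm markers summed to 8.65 and 10.6 CPM at 4 hr and to between 13.2 and 26.2 later, and the 6 trophoblast markers to 76.1 and 84 and to between 95.3 and 137. The trophoblast sum was carried by Tfap2c (mean 82.4 CPM), whereas Cdx2, a defining trophoblast factor named here after its values were seen, fell at all 3 times, by 3.22 on the log2 scale at 32 hr (SE 0.39, edgeR adjusted p = 0.000168). None of these 19 fibroblast, endoderm, and trophoblast markers was at 0 in all libraries, and 6 averaged under 1 CPM. Of the 4 endoderm markers tested, 0 passed at 16 hr and 1 rose at 24 hr. The 8 neural genes found fell in sum, from 447 and 395 CPM at 4 hr to between 190 and 262 later. The 11 primitive streak genes summed to 47.1 and 44.2 CPM at 4 hr and to between 19.1 and 26.9 later. The part of any of these markers in the rise of Sox4 and Sox3 was not tested, nor was that of the Lars2 share. With those features left out, Sox4 passed in all 3 comparisons, and Sox3 passed at 16 and 24 hr but not at 32 hr (adjusted p = 0.051, edgeR).

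**Figure D2:**
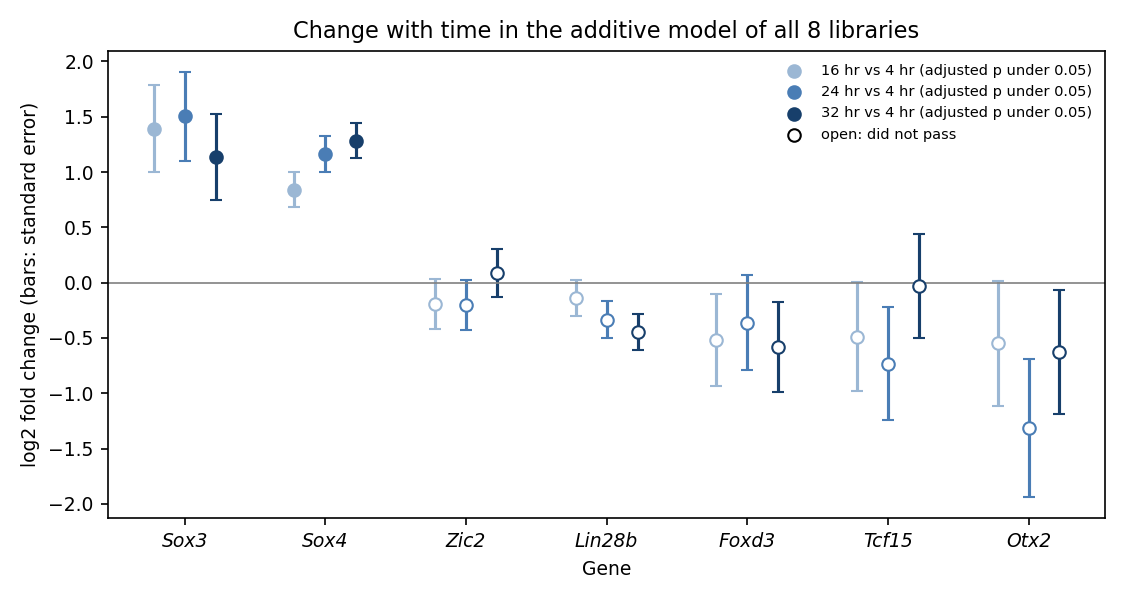
The log2 fold change (y axis) of the 7 members tested (x axis) is shown for 16, 24, and 32 hr against 4 hr, from light to dark blue, with standard errors as bars. Filled points have an adjusted p under 0.05 (edgeR) and open points do not. Sox3 and Sox4 are filled at all 3 times, between 0.84 and 1.50 (Sox3 at 32 hr with an adjusted p of 0.0498), and the points of the other 5 genes are open.

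Lin28b (ENSMUSG00000063804) persisted, with 597 to 3756 counts per library. In 2i the levels were 172 CPM (165.9 to 178.3), 197.4, 165.9, and 147.9 CPM (141.5 to 154.6) at 4, 16, 24, and 32 hr. With vitC it was at 193.8 CPM (186.4 to 201.3), 140.5, 128, and 124.1 (117.9 to 130.6). At 32 hr the level was 86% of that at 4 hr in 2i (81.2 to 91.1, counting error only) and 64.1% with vitC (60.1 to 68.3). Its fitted log2 fold changes against 4 hr were -0.14, -0.33, and -0.44 (SE 0.16) in order of time, with edgeR adjusted p-values of 0.596, 0.171, and 0.0638. The last passed without a filter on low counts (adjusted p = 0.0346, edgeR) and without the 16 hr pair (adjusted p = 0.0452, edgeR). Lin28a, the paralog, fell by 0.92 on the log2 scale at 24 hr (SE 0.14, edgeR adjusted p = 0.0013) and by 1.17 at 32 hr (SE 0.14, edgeR adjusted p = 0.000188). The difference between the paralogs was not tested. Of 15 genes of let-7 processing and of known let-7 targets, 3 rose and 3 fell at 24 hr (median 0.21). Over all genes, 11.5% were higher and 8.98% lower. Besides Lin28a, the named genes were Arid3b, an ARID-family factor and let-7 target, with a rise of 0.96, Dgcr8, the RNA-binding partner of Drosha, which fell by 0.76, and Drosha, the nuclear pri-miRNA nuclease, with a rise of 0.71 (edgeR adjusted p = 0.00193, 0.00291, and 0.0377). Without the vitC library at 24 hr, 1 of the 15 rose and 2 fell, and with the offset for GC content and gene length 1 rose and 4 fell.

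Zic2 (ENSMUSG00000061524), a zinc-finger factor bound at enhancers in ESCs and in the primed epiblast, also persisted. In 2i it was at 13.85, 14.14, 13.39, and 17.89 CPM, and with vitC at 17.08, 12.83, 13.51, and 14.91 CPM, at 4, 16, 24, and 32 hr. The intervals of all 8 libraries lay between 10.3 and 20.3 CPM. By counting error alone, Zic2 was at 129% of its 4 hr level at 32 hr in 2i (108 to 155), at 75.1% at 16 hr with vitC (58.1 to 96.3), and higher with vitC than in 2i at 4 hr (ratio 1.23, 1.02 to 1.49), whereas the additive model called no change. Its log2 fold changes against 4 hr were -0.19, -0.20, and 0.09 (SE 0.22 to 0.23), with edgeR adjusted p-values of 0.589, 0.569, and 0.807.

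Foxd3 (ENSMUSG00000067261), a forkhead factor required for the epiblast and for the exit from the naive state, was at 4.946, 4.835, 3.602, and 4.305 CPM in 2i. With vitC it was at 4.849, 2.018, 4.289, and 2.416 CPM, from 65, 14, 20, and 29 counts. The levels in 2i varied within overlapping intervals, and with vitC the 16 and 32 hr libraries were lower. The log2 fold changes against 4 hr were -0.52, -0.36, and -0.58 (SE 0.41 to 0.43) in order of time, and none passed (edgeR adjusted p = 0.413, 0.585, and 0.319). The exon of Foxd3 overlaps 89 bp of Gm23366 on the same strand.

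Tcf15 (ENSMUSG00000068079) encodes a basic helix-loop-helix factor that primes ESCs for differentiation downstream of FGF and is held back by ID proteins. In 2i it was counted 80, 55, 54, and 97 times, at 4.655, 2.891, 4.229, and 7.2 CPM. With vitC the counts were 61, 27, 6, and 30, at 4.551, 3.891, 1.287, and 2.499 CPM. The library in 2i at 32 hr was the highest and that with vitC at 24 hr the lowest. At 32 hr the level was 155% of that at 4 hr in 2i (114 to 211) and 54.9% with vitC (34.2 to 86.4). Averaged over treatments, the log2 fold change was -0.49, -0.73, and -0.03 at 16, 24, and 32 hr (SE 0.47 to 0.51, edgeR adjusted p = 0.526, 0.338, and 0.972). Among the 7 listed partners and inhibitors, 3 rose and 1 fell at 24 hr, where 11.5% of all genes were higher and 8.98% lower. The inhibitor Id1 fell by 1.69 on the log2 scale (SE 0.20, edgeR adjusted p = 0.00025), whereas Id3 rose by 0.73 (SE 0.20, edgeR adjusted p = 0.0219). The E proteins Tcf4 and Tcf12, dimerization partners of such factors, rose by 0.63 and 0.44 (edgeR adjusted p = 0.0158 and 0.0385). Without the vitC library at 24 hr, 0 of the 7 rose and 1 fell, and with the offset for GC content and gene length 1 rose and 1 fell.

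Otx2 (ENSMUSG00000021848) was low at 4 hr, with 38 counts in 2i (2.211 CPM, 1.565 to 3.035) and 41 with vitC (3.059 CPM, 2.195 to 4.15). In 2i it was at 1.577, 1.331, and 1.188 CPM at 16, 24, and 32 hr. With vitC it was at 2.018, 0.4289, and 2.249 CPM. Every later library was below the 4 hr library of its own treatment, but the vitC library at 32 hr lay above the 2i library at 4 hr. At 32 hr 53.7% of the 4 hr level remained in 2i (28 to 98.7) and 73.5% with vitC (43.5 to 122). The log2 fold change was -0.55, -1.31, and -0.63 (SE 0.56 to 0.62), with edgeR adjusted p-values of 0.536, 0.157, and 0.438. The 24 hr value rests on the vitC library at 24 hr, with 2 counts, and was -0.67 without it (adjusted p = 0.652, edgeR). Exons of Otx2 overlap 154 bp of Otx2os1 on the opposite strand and 168 bp of Gm49154 on the same strand. Reads from these shared stretches cannot be told apart here.

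Fgf5 (ENSMUSG00000029337) was counted 12, 7, 3, and 0 times in 2i and 20, 3, 1, and 1 times with vitC. Its level at 4 hr was 0.6982 CPM in 2i (0.3608 to 1.22) and 1.492 CPM with vitC (0.9114 to 2.304). At 32 hr it was at 0% of the 4 hr level in 2i (0 to 45.9) and at 5.58% with vitC (0.135 to 34.9), counting error only. The 4 hr value in 2i was 3.14-fold the floor of 3 counts in the 32 hr library (0.223 CPM). That ratio leaves out the counting error at 4 hr. All 6 later libraries had fewer counts than the 4 hr library of the same treatment, and those at 24 and 32 hr held 3 counts or fewer, so that no order among them can be read. Fgf5 did not pass the filter. In a fit without the filter, over 23194 genes, its log2 fold change at 32 hr was -4.44 (SE 1.61, edgeR adjusted p = 0.0348), which rests on these few counts, and at 16 and 24 hr it did not pass (edgeR adjusted p = 0.641 and 0.412). Of the 8 other genes listed for FGF signaling, 7 were tested, and 1 rose and 0 fell at 24 hr (11.5% and 8.98% over all genes). The gene that rose was the receptor Fgfr1, by 0.60 (SE 0.17, edgeR adjusted p = 0.0274). None of the 7 rose with the offset for GC content and gene length, without a treatment term, without the 32 hr pair, or without the vitC library at 24 hr. The receptor Fgfr2 was at 0.50, the ligand Fgf4 at -0.41, and the adaptor Frs2 at 0.31, with edgeR adjusted p-values of 0.0659, 0.119, and 0.169.

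Pou3f1 (ENSMUSG00000090125) had 0 counts in each of the 8 libraries, among 99158597 counts in all. By the floor of 3 counts, a 0 leaves room for up to 0.158 CPM in the deepest library and 0.643 CPM in the shallowest. The annotation release behind the counts is not given in the sources used here, so that whether reads could be counted on this gene is not known. No time course or vitC effect can be given for it. Its exon shares 330 bp with Gm2164 on the opposite strand.

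The members most like each other in log2 CPM over the 8 libraries were Sox3 and Sox4 (Pearson r = 0.79, n = 8). For the 3 members above 5 CPM, the closest of 9222 protein-coding genes above 10 CPM were Pvr (r = 0.989), Cotl1 (0.985), and Adamts15 (0.983) for Sox4, Cab39 (0.985), Klhl23 (0.974), and Has2 (0.972) for Lin28b, and Hemk1 (0.966), Iscu (0.949), and Agk (0.931) for Zic2. Of the candidates, 2.57% exceeded 0.9 for Sox4, 0.965% for Lin28b, and 0.0867% for Zic2. The 8 points share time, lane, and depth, and these values are descriptive.

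The effect of vitC on the members was compared at matched times, with time as a block in the model. None of the 7 members tested passed, where 0.167% of all genes did (25 of 14931, 0.107% higher and 0.0603% lower). The log2 difference, vitC minus 2i, was -0.32 for Sox4 (SE 0.11, unadjusted p = 0.0142, adjusted p = 0.219, edgeR). It was -0.23 for Lin28b (SE 0.12, adjusted p = 0.401) and -0.02 for Zic2 (SE 0.16, adjusted p = 0.973, edgeR). For the low members it was -0.61 for Tcf15 (SE 0.36), -0.44 for Foxd3 (SE 0.30), 0.13 for Sox3 (SE 0.27), and 0.27 for Otx2 (SE 0.43), with edgeR adjusted p-values of 0.493, 0.554, 0.884, and 0.827. These standard errors leave room for differences of a size similar to the values, so that the members are not shown to be alike with and without vitC.

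At single times, the Tcf15 level with vitC was 0.978 of that in 2i at 4 hr (0.689 to 1.38) and 1.35 at 16 hr (0.816 to 2.17). It was 0.304 at 24 hr (0.107 to 0.706) and 0.347 at 32 hr (0.222 to 0.528), where the intervals cover counting error only. A linear change of the vitC effect with hours was -0.06 log2 per hr for Tcf15, with an unadjusted p = 0.0474 and an adjusted p of 1 (edgeR). No gene passed for this change in edgeR (0 of 14931, 0% of all genes, with 431 at an unadjusted p under 0.05), and 1 did in DESeq2. Foxd3 was at 0.417 of the 2i level at 16 hr (0.22 to 0.736) and 0.561 at 32 hr (0.346 to 0.891), but at 0.981 and 1.19 at 4 and 24 hr. The vitC ratio of Lin28b was 1.13 at 4 hr (1.07 to 1.19) and then 0.712 (0.663 to 0.764), 0.772 (0.703 to 0.845), and 0.839 (0.784 to 0.898). That of Sox4 was 0.761 (0.675 to 0.858), 0.779 (0.697 to 0.87), 1.02 (0.907 to 1.15), and 0.686 (0.631 to 0.746). That of Sox3 was 0.627 (0.364 to 1.05), 1.22 (0.846 to 1.75), 1.77 (1.16 to 2.67), and 0.974 (0.675 to 1.4). Fgf5 was higher with vitC at 4 hr, with a ratio of 2.14 (0.995 to 4.79), which includes 1. The vitC libraries at 16 and 24 hr were also the shallowest, and the part of depth in these ratios was not tested.

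**Figure D3:**
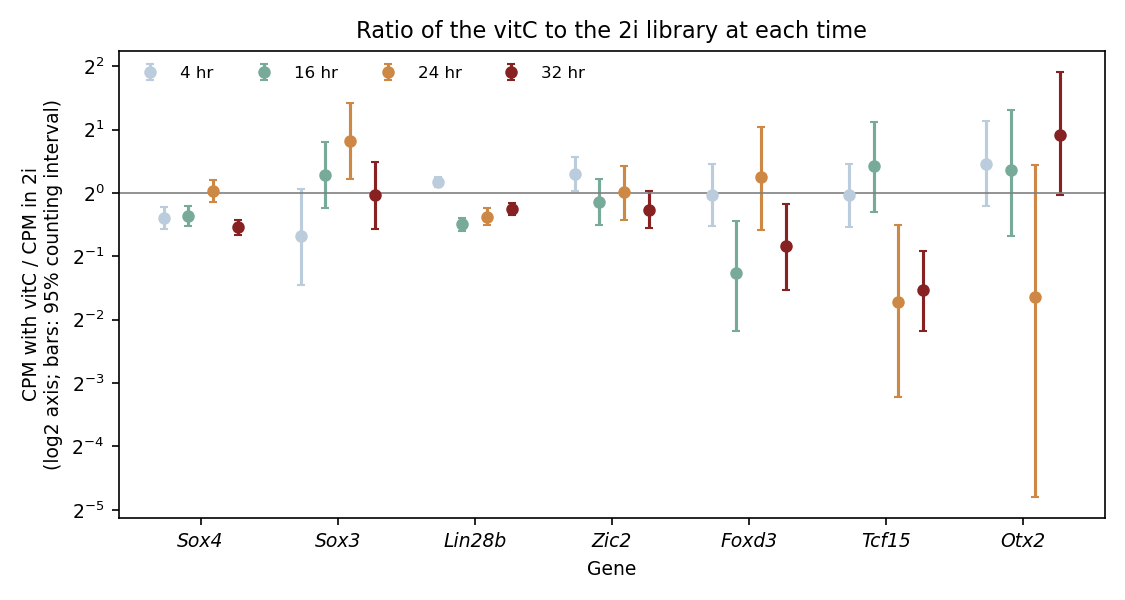
The ratio of CPM with vitC to CPM in 2i (y axis, log2 scale) is shown for 7 members (x axis) at 4, 16, 24, and 32 hr (colors), each from 1 library per treatment, with 95% counting intervals as bars. Tcf15 lies at 0.304 and 0.347 at 24 and 32 hr, and Lin28b moves from 1.13 at 4 hr to between 0.712 and 0.839 later.

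Other genes of these stages were taken from fixed lists, described by counts and medians. Of 20 other formative and primed genes, 0 rose and 5 fell at 16 hr, 1 rose and 7 fell at 24 hr, and 3 rose and 9 fell at 32 hr. The medians were -0.36, -0.25, and -0.41, against 0.01, 0.01, and 0 over all genes. At 24 hr, Dnmt3l, a cofactor of de novo DNA methylation, fell by 3.86 on the log2 scale (SE 0.29), and Utf1, a chromatin factor of pluripotent cells, fell by 3.11 (SE 0.33). Dnmt3b, a de novo DNA methyltransferase, fell by 2.08 (SE 0.15), and the kinase gene Pim2 fell by 1.86 (SE 0.24), all with edgeR adjusted p-values of 0.0004 or lower. Of 11 primitive streak genes, 5 were tested, of which 1 rose and 3 fell at 24 hr. The gene that rose was Gsc, by 2.87 from a mean of 2.01 CPM (SE 0.625, edgeR adjusted p = 0.00763). The T-box factor T, which marks the streak, fell by 1.13 (SE 0.25, edgeR adjusted p = 0.00867), and the ligand Wnt3 fell by 0.95 (SE 0.26, edgeR adjusted p = 0.0225).

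Of 12 naive pluripotency genes, 6 rose and 1 fell at 24 hr, with a median of 0.57. For this and the lists below, the shares over all genes at 24 hr were 11.5% higher and 8.98% lower. The factors Klf5, Dppa3, and Tfcp2l1 rose by 1.97, 1.41, and 1.08, and Nr0b1 fell by 1.47 (edgeR adjusted p = 0.00337, 0.00237, 0.000687, and 0.00153). Of 10 neural genes listed, 3 were tested, and the cytoskeletal genes Tubb3 and Nes fell by 1.59 and 0.68 (edgeR adjusted p = 0.000125 and 0.0136). Zic1, at a mean of 1.36 CPM, did not pass at 24 hr (1.85, SE 0.83, edgeR adjusted p = 0.136). At 32 hr Zic1 rose by 3.71 (SE 0.73, edgeR adjusted p = 0.00334). Among 7 tested relatives of the members, 2 rose and 1 fell at 24 hr. Sox12, a SOXC factor like Sox4, rose by 1.19 (SE 0.32, edgeR adjusted p = 0.0197), and Sox2, a SOXB1 factor like Sox3, rose by 1.03 (SE 0.15, edgeR adjusted p = 0.000803). Sox11, another SOXC factor with a higher mean (54.4 CPM) than Sox12 (11.2 CPM), did not pass at 24 hr (0.24, SE 0.15, edgeR adjusted p = 0.287). At 32 hr Sox11 rose by 0.44 (SE 0.15, edgeR adjusted p = 0.0445). Without the vitC library at 24 hr, 0 rose and 7 fell of the other formative and primed genes, 0 rose and 1 fell of the streak genes, 2 rose and 1 fell of the naive genes, 1 rose and 1 fell of the relatives, and 0 rose and 1 fell of the neural genes. None of the genes in these lists passed for vitC, whereas Sall4, among the ESC markers, rose with it by 0.74 on the log2 scale (SE 0.12, edgeR adjusted p = 0.0321). The values of the lists and of the 7 members stand side by side, and a difference between them was not tested.

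**Figure D4:**
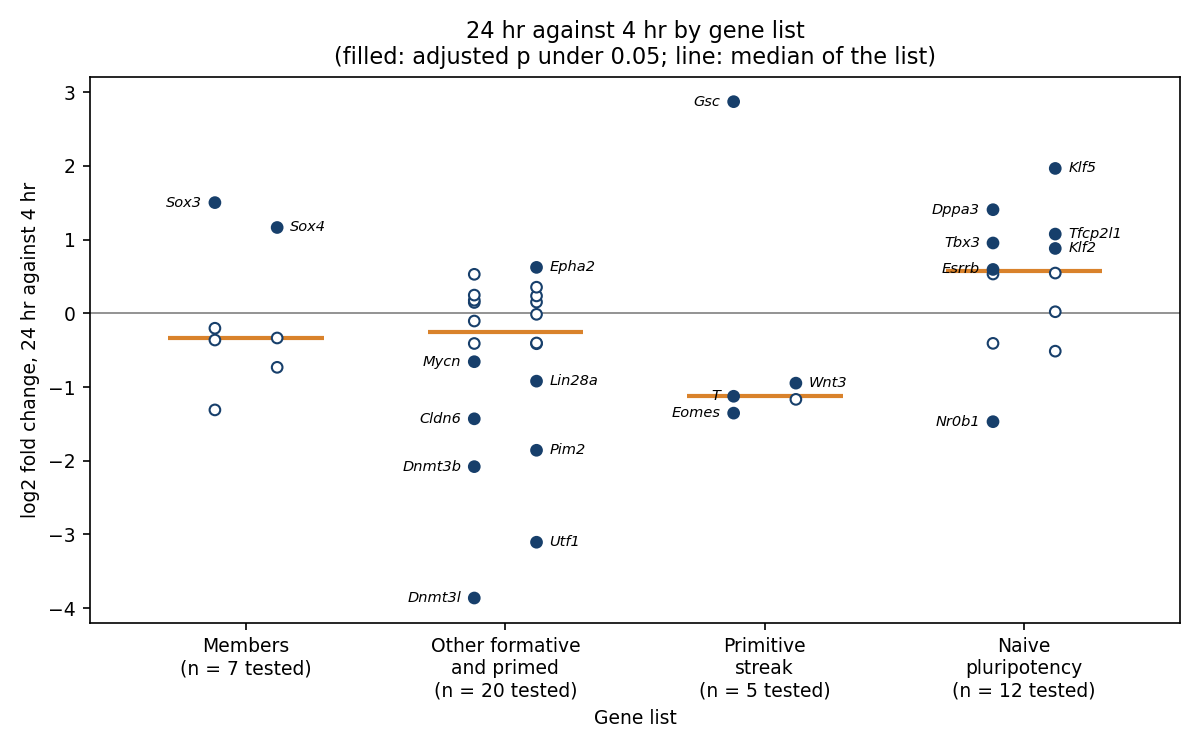
The log2 fold change at 24 hr against 4 hr (y axis) is shown for the genes tested of 4 lists (x axis), 1 point per gene, filled and labelled where the adjusted p was under 0.05 (edgeR), with the list's median as an orange line. The medians are -0.33 for the 7 members, -0.25 for the other formative and primed genes, -1.13 for the primitive streak genes, and 0.57 for the naive genes.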

How the data were processed

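RNA-seq of the 8 libraries was analysed from raw counts per Ensembl gene, which the authors deposited without normalization. Per the labels, ribosomal RNA was depleted and TruSeq libraries were sequenced as single-end reads. The submitters' processing notes name GSNAP, HTSeq, and the builds NCBIM37 and mm9. The annotation release is not given in the sources used here, and 32604 of the 37263 identifiers were found in GENCODE M21. Totals ranged from 4753528 to 18434932 counts, and intervals cover counting error only. Tests used edgeR 4.0.16 (quasi-likelihood) in R 4.3.3, with 3 residual degrees of freedom for time and vitC and 2 for its linear trend over hours, and the scripts were tested on simulated data. Alternatives were DESeq2 1.42.0, DESeq2 size factors, no filter, an offset for GC content and gene length (mgcv 1.9.3), Lars2 features left out, other model terms, lanes, and omitted time points, and, chosen after seeing the data, omission of the vitC library at 24 hr. p-values set an effect against departures from additivity, with variances that edgeR moderates across genes, and not against a spread between cultures. The members and lists were chosen with earlier results of these data known. From each other list, up to 4 genes were named by the largest change at 24 hr and a mean CPM of 5 or more. Cdx2, Zic1, Sox11, Gsc, and the ESC markers given with a fold change were named after their values were seen. The genes most like a member were the 3 with the highest Pearson r. The lane was read from the names of the deposited files. 1 gene covered by the rule for named genes is not reported here.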

Additional observations from a re-analysis of the deposited data

How the results depend on the processing

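Of 385 member values under the alternatives, 356 kept their direction and side of the threshold. Sox4 passed against 4 hr at 16, 24, and 32 hr under all of them. Only 1 member passed at 16 hr with the GC and length offset (Sox3 adjusted p = 0.0559, edgeR), without a treatment term (0.0517), or without the 32 hr pair (0.0561), at 24 hr without the vitC library at 24 hr (0.233), and at 32 hr with DESeq2 (0.0652), its size factors (0.0516), the offset (0.226), Lars2 features left out (0.051), no treatment term (0.0669), or without the 24 hr pair (0.0561) or that vitC library (0.0547). Without the 16 hr pair Sox3 did not pass at 32 hr (0.0637) but Lin28b did, and without the filter 4 members passed at 32 hr (Sox3, Sox4, Lin28b, and Fgf5). When a time point was omitted, between 1 and 2 members passed at 16 and 32 hr. The cause was not tested.

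Values that changed sign belonged to members that did not pass. At 32 hr against 4 hr they were Zic2 with the offset (-0.13) and Tcf15 without a treatment term (0.0816), without the vitC library at 24 hr (0.0126), or with a time point omitted (-0.092 to 0.0132). From 16 to 32 hr it was Foxd3 within lane 7 (0.0026). For vitC they were Zic2 with the offset (0.0012) or without the 16 hr (0.0216) or 32 hr pair (0.072), and Sox3 without the vitC library at 24 hr (-0.11) or with a time point omitted (-0.11 without the 24 hr pair to 0.35). For the change with hours they were Otx2 with DESeq2 (-0.0039), its size factors (-4e-04), or the offset (-4e-04), and Sox4 without the filter (6e-04) or with Lars2 features left out (2e-04).

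Over all genes, the count at 24 hr was 3061, or 1891 without a treatment term and 752 without the vitC library at 24 hr. At 16 hr it was 2448, or 1289 without a treatment term. With the offset, 1152 genes rose and 1432 fell at 16 hr, in place of 1367 and 1081, 1420 rose and 1715 fell at 24 hr, in place of 1720 and 1341, and 1660 rose and 1967 fell at 32 hr, in place of 2021 and 1764. From 16 to 32 hr it was 87, or 239 with DESeq2, 589 without the filter, 11 without a treatment term, 238 within lane 7, 57 without the vitC library at 24 hr, and between 54 and 103 when a time point was omitted. For vitC it was 25, or 299 with DESeq2, 690 without the filter, 60 with Lars2 features left out, 0 without the time block (740 at an unadjusted p under 0.05, edgeR), 11 without the vitC library at 24 hr, and between 0 and 381 when a time point was omitted (1732 at an unadjusted p under 0.05 for the 0, without the 32 hr pair). For the change with hours it was 0, or 1 with DESeq2, 5 without the filter, and 8 without the vitC library at 24 hr. Replicate cultures could not be paired, because each combination of time and treatment has 1 library and the labels give no replicate numbers. The treatments were paired by time in the vitC model itself, and its fit without that block is given above. Depth limits Otx2, Fgf5, Foxd3, Sox3, and Tcf15, with 0 to 103 counts per library.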
